A study of Mus musculus with 73 samples.

Results

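The genes described here have symbols that begin with Srsf, Sfrs, Hnrnp, Hnrp, Snrp, Sf3a, Sf3b, Prpf, Ddx or Dhx, and are mostly pre-mRNA splicing factors and RNA helicases. The rule for members uses symbols only, among the array features that carry a single gene symbol. It therefore also takes in genes with other roles, such as Ddx11, a helicase of sister chromatid cohesion. The rule found 60 of 7486 such features, which stand for 55 of 6777 genes. They comprise 7 genes of the small nuclear ribonucleoproteins (snRNPs), 10 of the heterogeneous nuclear ribonucleoproteins (hnRNPs), 5 SR proteins, 7 subunits of splicing factor 3 (SF3), 7 pre-mRNA processing factors (PRPF), 12 DEAD-box helicases and 7 DEAH-box helicases. All 55 had a value on every reference array, and 49 had values on the direct arrays, where Hnrnpul1, Sf3b3, Prpf19, Prpf3, Dhx30 and Dhx36 had none.

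Most genes of mammals are transcribed as precursors from which introns are cut by the spliceosome, a machine of snRNP particles and many proteins. SR proteins bind exons and mostly favour their inclusion, whereas many hnRNPs bind precursor RNA and compete with them, so that the balance of both can set which exons are kept. Most DEAD-box and DEAH-box proteins use ATP to remodel RNA and RNA-protein contacts in splicing, export, ribosome assembly and translation.

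RNA was measured on 2-colour cDNA microarrays, 73 in all. On 35 reference arrays, mouse tissue RNA was compared with the Stratagene Universal Reference RNA, a pool used as a common scale. C57BL/6 mice gave normal prostate (4 arrays), prostate tumors (5), normal seminal vesicle (4) and seminal vesicle tumors (6), and both tumors came from the PB/SV40 T/t-antigen (TRAMP) transgene. FVB mice gave normal mammary gland (4), mammary tumors of C3(1)/SV40 T/t-antigen mice (4), normal lung (4) and lung tumors of CC10/SV40 T/t-antigen mice (4). All tumors on the reference arrays therefore carried the SV40 T/t-antigen, a viral oncoprotein pair that inactivates p53 and the retinoblastoma protein, and all normals were wild-type. On 38 direct arrays, a mammary tumor was hybridised against wild-type normal mammary gland of the same strain. The FVB models were C3(1)/SV40 T/t-antigen (5 arrays, called C3(1) Tag), MMTV-her2/neu (5), MMTV-myc (4), MMTV-ras (5) and MMTV-PyMT (5). The C57BL6/129sv models were p53fp/fp;WAP-cre (4) and Brca1 Co/Co;MMTV-cre;p53 (5), both with Cre expression driven by a promoter active in the mammary gland, and the Balb/c model was p53-/-;transplant (5). Ages are not given in the sources used here. Nothing says whether arrays of a group came from separate animals, so p-values measure the spread between these samples, which may be technical, and whether direct arrays of 1 strain shared their normal RNA is not stated.

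The promoters of 3 members are shown because they carry the motifs tallied over the whole group. Each is the 250 bases before the RefSeq start (GRCm38.p6), 5′ to 3′ on the gene's strand, and capitals mark CCAAT in Dhx15 and CCGGAAG, read on the opposite strand, in the other two. Dhx15 lies on the minus strand (window chr5:52190547-52190796), Snrpb2 on the plus strand (chr2:143062819-143063068) and Ddx39b on the plus strand (chr17:35241496-35241745). They were picked after values were seen: Dhx15 and Snrpb2 were higher in tumors and Ddx39b lower.
Dhx15: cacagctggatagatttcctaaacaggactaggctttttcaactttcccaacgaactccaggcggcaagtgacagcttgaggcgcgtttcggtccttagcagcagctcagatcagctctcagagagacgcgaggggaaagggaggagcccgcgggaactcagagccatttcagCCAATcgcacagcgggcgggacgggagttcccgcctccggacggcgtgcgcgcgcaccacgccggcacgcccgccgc
Snrpb2: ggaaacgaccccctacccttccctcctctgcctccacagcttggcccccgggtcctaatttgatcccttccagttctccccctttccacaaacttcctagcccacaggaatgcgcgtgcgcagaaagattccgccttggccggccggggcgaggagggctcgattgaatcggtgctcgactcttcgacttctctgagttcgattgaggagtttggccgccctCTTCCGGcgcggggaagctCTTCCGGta
Ddx39b: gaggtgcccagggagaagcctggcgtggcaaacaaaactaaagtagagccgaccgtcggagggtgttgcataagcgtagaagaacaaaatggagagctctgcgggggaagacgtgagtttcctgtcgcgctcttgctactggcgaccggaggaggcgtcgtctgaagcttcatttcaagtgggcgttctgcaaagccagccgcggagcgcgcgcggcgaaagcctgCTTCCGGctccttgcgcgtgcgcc
Of the members, 51 had a promoter entry. CCGGAAG, the core of an ETS-type motif, was found on either strand in 17 of them (33.3%), against 13% of 5361 genes on the array with an entry and 7.83% of all 27025 genes in the table. The E2F-type motifs TTTCCCGC or TTTGGCGC were found in 5 (9.8%), against 2.8% of array genes and 1.51% of all genes: these were Ddx46, Dhx9, Hnrnpul1, Srsf1 and Srsf10. CCAAT was found in 19 (37.3%), against 39.2% and 37.5%. A match is a description of letters. The Snrpb2 and Ddx39b promoters, from genes that moved in opposite directions, both held CCGGAAG, Snrpb2 2 times and Ddx39b 1 time.

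The values were read as log2 ratios, a base inferred as described under processing, so that 1 equals a 2-fold difference. Reference arrays held values for 9244 to 9572 features and direct arrays for 7042 to 7934. The reference arrays were used as deposited, and each direct array was centred on its median, since deposited medians ran from -0.42 to 0.66. The direct array least like its group was MMTV-myc replicate 4, with a mean correlation of 0.38 with the other 3. The labelled tissues were checked on markers. All 7 measured lung epithelium markers stood higher in normal lung than in the remaining normals averaged, and all 13 adipocyte markers did so in normal mammary gland. In normal prostate only 1 of 4 measured prostate secretory genes did, their mean level being 2.36 ± 0.12 (SD, n = 4) there and 2.38 ± 0.14 (n = 4) in normal seminal vesicle. All 16 measured skeletal muscle genes stood higher in normal prostate, with a mean level of 3.84 ± 0.39 (SD, n = 4) against 0.03 ± 0.13 (n = 5) in the prostate tumors. Of 8 epithelial markers, 8 fell in prostate tumors, from a mean level of 1.44 ± 0.12 to -0.76 ± 0.15. Seminal vesicle secretory genes had no measured member. In bulk tissue, fewer cells of a type and less RNA per cell cannot be told apart.

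In tumors of all 4 sites more members rose than fell. A gene passed when its Benjamini-Hochberg adjusted p from limma, over all genes tested, was under 0.05. In prostate tumors 36 of 55 members rose and 6 fell, and the median member change was 0.51, against -0.03 over all genes. Of all genes tested there, 29.2% rose and 32.2% fell. In lung tumors 28 members rose and 4 fell with a median change of 0.31 against -0.06, where 16.2% of all genes rose and 20.4% fell. In seminal vesicle tumors 24 rose and 8 fell with a median of 0.25 against 0.04, and the background was 23.3% and 20.2%. In mammary tumors 19 rose and 3 fell with a median of 0.15 against -0.02, where 16.6% and 20.1% of all genes did.

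**Figure D1:**
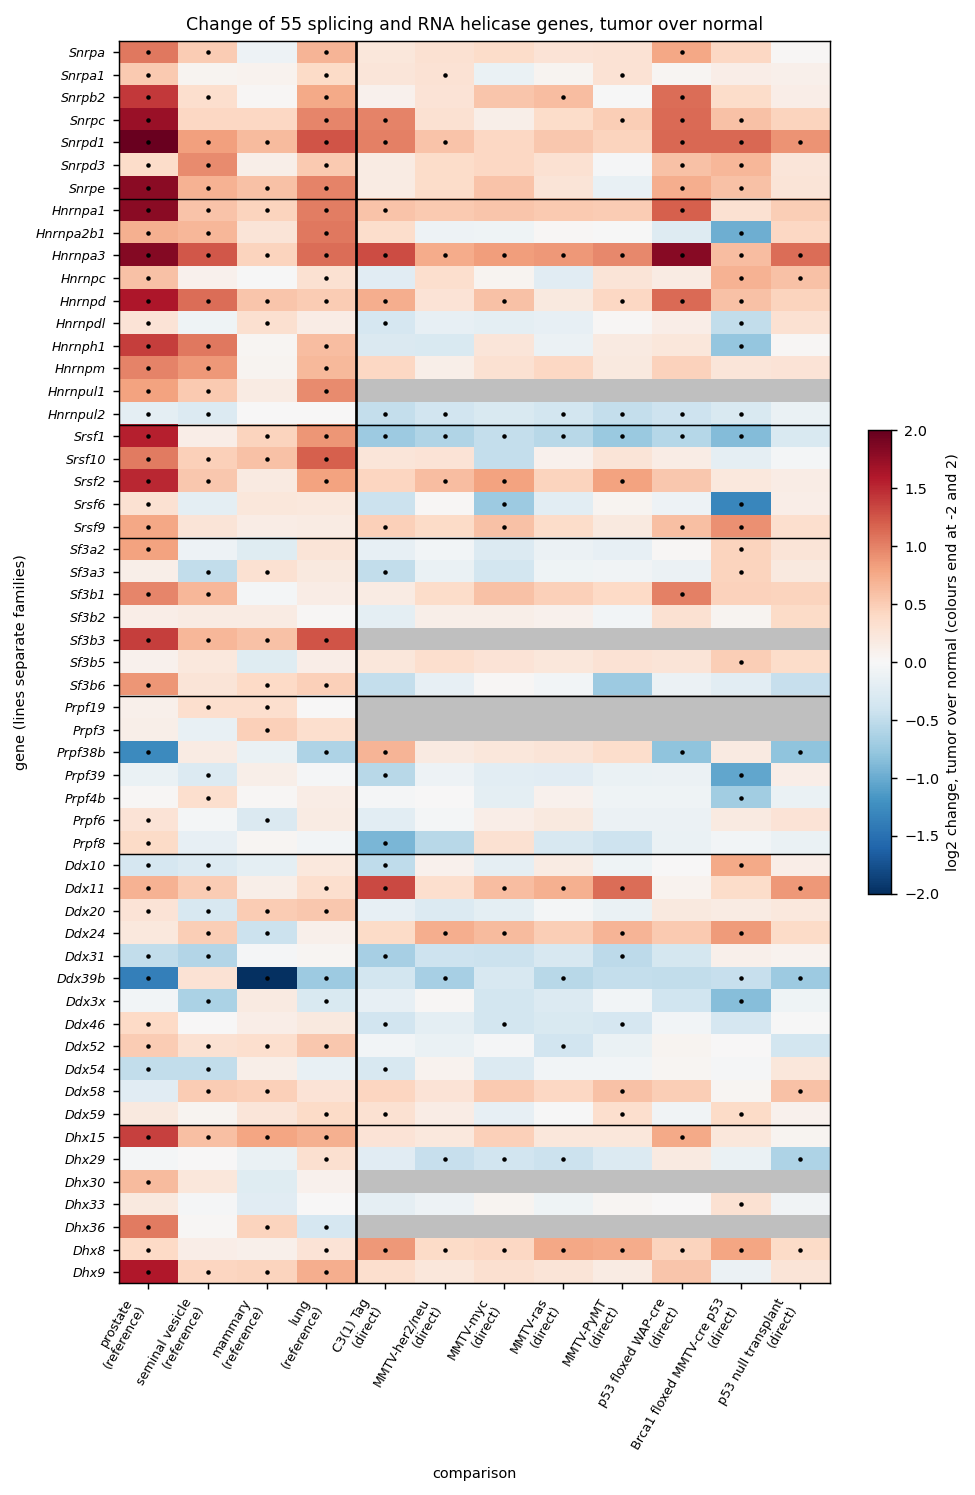
Log2 change, tumor over normal, of the 55 genes (rows, grouped by family) in 4 sites on reference arrays and 8 mammary models on direct arrays (columns). Red is higher and blue lower in tumor, grey has no value, and a dot marks a gene that passed: the snRNP rows are red in prostate and lung, while Ddx39b is blue in prostate (-1.37), mammary (-2.43) and lung (-0.73).

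These counts moved with other values and settings, for which shares of all genes are not given here. The proliferation genes moved with the members: 17 of 18 rose in prostate tumors, 14 in seminal vesicle tumors (2 fell), and all 18 in mammary and in lung tumors, with median changes of 2.21, 1.15, 1.52 and 1.69. Their part in the members' change was not tested. Epithelial markers also rose in lung tumors (7 of 8, median change 1.29) and mammary tumors (5 of 8, 0.89), and adipocyte markers fell in prostate (12 of 13, -1.57) and mammary tumors (all 13, -2.30). Their part was not tested either. With the skeletal muscle level as a covariate, 19 members rose and 2 fell in prostate, with a median change of 0.39. That level ran from 3.56 to 4.41 in normal prostate and from -0.06 to 0.26 in prostate tumors. The fit therefore cannot tell muscle level well apart from tumor state in prostate, and a call lost in it may reflect lower precision. Under quantile normalization 11 rose and 3 fell in seminal vesicle, with a median change of 0.06. There the normal arrays all lie in 1 range of database identifiers that holds no seminal vesicle tumor, and with the range as a factor 11 rose and 2 fell, at a median change of 0.36. In prostate only tumor replicate 5 shares an identifier range with normal prostate arrays. With the range as a factor 35 members rose and 5 fell in prostate, at a median change of 0.50. In mammary gland, within identifier range 1 alone, 8 rose and 5 fell, and without normal mammary replicate 4, 15 rose and 5 fell.

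Across the sites, 10 of 55 members rose in all 4, which is 18.2% of them, and 3.39% of all genes did. No member fell in all 4, which 0.8% of all genes did. The 10 were Snrpd1, Snrpe, Hnrnpa1, Hnrnpa3, Hnrnpd, Srsf10, Sf3b3, Ddx52, Dhx9 and Dhx15. Another 12 rose at 3 sites, and 11 rose at none, counts for which the share of all genes is not given here. The call of Hnrnpa3 in mammary gland (adjusted p = 0.0429) was lost without normal mammary replicate 3 (0.47) or 4 (0.32), or without mammary tumor replicate 1 (0.42), 3 (0.45) or 4 (0.37). That of Hnrnpa1 in mammary gland was lost without normal mammary replicate 4 (0.30) and that of Hnrnpd in lung without normal lung replicate 2 (0.42). In seminal vesicle the calls of Snrpd1 (0.30), Snrpe (0.20), Sf3b3 (0.24), Dhx9 (0.17) and Hnrnpa1 (0.05) were lost under quantile normalization. With the identifier range as a fixed factor, 11 members rose in seminal vesicle instead of 24. Over the 4 sites, 16 calls of named genes were lost in that fit. The seminal vesicle changes given below for single genes come from the fit without this factor.

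The snRNP proteins rose together in 2 sites. They are the proteins of the U1 and U2 particles, such as Snrpa, Snrpc, Snrpa1 and Snrpb2, and of the Sm ring that surrounds most spliceosomal RNAs, such as Snrpd1, Snrpd3 and Snrpe. All 7 passed as higher in prostate tumors, with a median change of 1.41 (0.37 to 1.98), and all 7 in lung tumors, with a median of 0.76 (0.39 to 1.25). In seminal vesicle 5 of 7 rose with a median of 0.51, and in mammary gland 2 of 7 with a median of 0.11. Snrpd1 read -2.06, -2.06, -2.29 and -2.03 in normal prostate and 0.04, -0.06, -0.19, -0.24 and -0.19 in the tumors. No tumor array reached down to a normal array, and the change was 1.98 ± 0.16 (standard error), a 3.95-fold rise, with adjusted p = 4.28e-12. In lung Snrpd1 read -1.60, -1.96, -1.86 and -1.15 in normal tissue and -0.25, -0.39, -0.35 and -0.59 in tumors, again without overlap. Snrpe read -2.11, -2.17, -2.22 and -1.72 in normal prostate against -0.24, -0.16, -0.30, -0.05 and -0.49 in tumors, a change of 1.81 ± 0.12 (adjusted p = 4.96e-14). In mammary gland Snrpe read -0.83, -1.05, -0.62 and -1.03 in normal tissue and -0.34, -0.37, -0.21 and -0.25 in tumors. The mammary groups did not overlap either, at a smaller change of 0.59 ± 0.13 (adjusted p = 5.07e-04). On direct arrays the C3(1) Tag change of Snrpe was 0.17 ± 0.18 and did not pass (adjusted p = 0.462). Snrpe passed as higher in 2 of 8 models.

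Of the 10 hnRNP genes, all passed in prostate tumors, 9 higher and Hnrnpul2 lower at a change of -0.20 ± 0.08, with a family median of 0.90. The Hnrnpul2 call was lost without normal prostate replicate 3 (-0.19) or 4 (-0.14) or prostate tumor replicate 2 (-0.19). In seminal vesicle 7 rose and 1 fell, in lung 8 rose and in mammary gland 4 rose, with medians of 0.62, 0.64 and 0.21. Hnrnpa3, a relative of Hnrnpa1 that binds pre-mRNA, read -1.41, -1.49, -1.60 and -1.45 in normal prostate and 0.28, 0.59, 0.26, -0.05 and 0.66 in tumors. In normal seminal vesicle Hnrnpa3 read -1.65, -1.74, -1.70 and -1.56, and in the 6 tumors it ran from -0.64 to -0.24 with a median of -0.41. Neither site showed overlap, and the changes were 1.84 ± 0.17 (adjusted p = 2.53e-11) and 1.24 ± 0.16 (adjusted p = 4.63e-07). Hnrnpd, known as AUF1 and a binder of AU-rich elements in mRNA, read -1.53, -1.43, -1.60 and -1.58 in normal seminal vesicle and -0.64 to -0.12 (median -0.51) in tumors. Its change there was 1.11 ± 0.14 (adjusted p = 4.57e-07). Hnrnph1, which binds G-rich RNA, read -1.04, -1.09, -1.17 and -1.22 in normal seminal vesicle and -0.24 to 0.16 (median -0.12) in tumors, a change of 1.05 ± 0.11 (adjusted p = 9.58e-09). In mammary gland the Hnrnph1 change was 0.04 ± 0.12 and did not pass (adjusted p = 0.839). Hnrnpa2b1 rose in prostate (0.71 ± 0.12), seminal vesicle (0.67 ± 0.12) and lung (1.06 ± 0.13), and its change in mammary gland was 0.25 ± 0.13 (adjusted p = 0.131). The prostate call was lost with the muscle covariate (0.50).

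All 5 SR proteins rose in prostate tumors, with a median change of 1.04. In lung 3 rose, and in seminal vesicle and mammary gland 2 each. Srsf1, the SR protein also known as SF2/ASF, had the smallest adjusted p of the members in prostate. It read -0.62, -0.45, -0.49 and -0.53 in normal tissue and 0.87, 1.16, 1.17, 1.07 and 0.87 in tumors, a change of 1.55 ± 0.08 (2.93-fold, adjusted p = 7.71e-17). Srsf2, which like Srsf1 binds exonic enhancers, rose 2.83-fold in prostate, by 0.81 ± 0.12 in lung and by 0.54 ± 0.11 in seminal vesicle (0.30 and not passing under quantile normalization), and its change in mammary gland was 0.18 ± 0.12 (adjusted p = 0.264). Srsf10 read -0.01, -0.05, 0.17 and -0.02 in normal lung and 1.29, 1.21, 1.10 and 1.23 in lung tumors. The lung groups lay far apart, with a change of 1.19 ± 0.15 (adjusted p = 9.84e-08). In mammary gland Srsf10 read 0.41, -0.26, 0.17 and -0.04 in normal tissue and 0.73, 0.44, 0.97 and 0.49 in tumors. These were close but did not overlap, at a change of 0.59 ± 0.15 (adjusted p = 0.00162). On direct arrays the C3(1) Tag change of Srsf10 was 0.24 ± 0.17 (adjusted p = 0.278), and Srsf10 passed in 0 of 8 models.

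**Figure D2:**
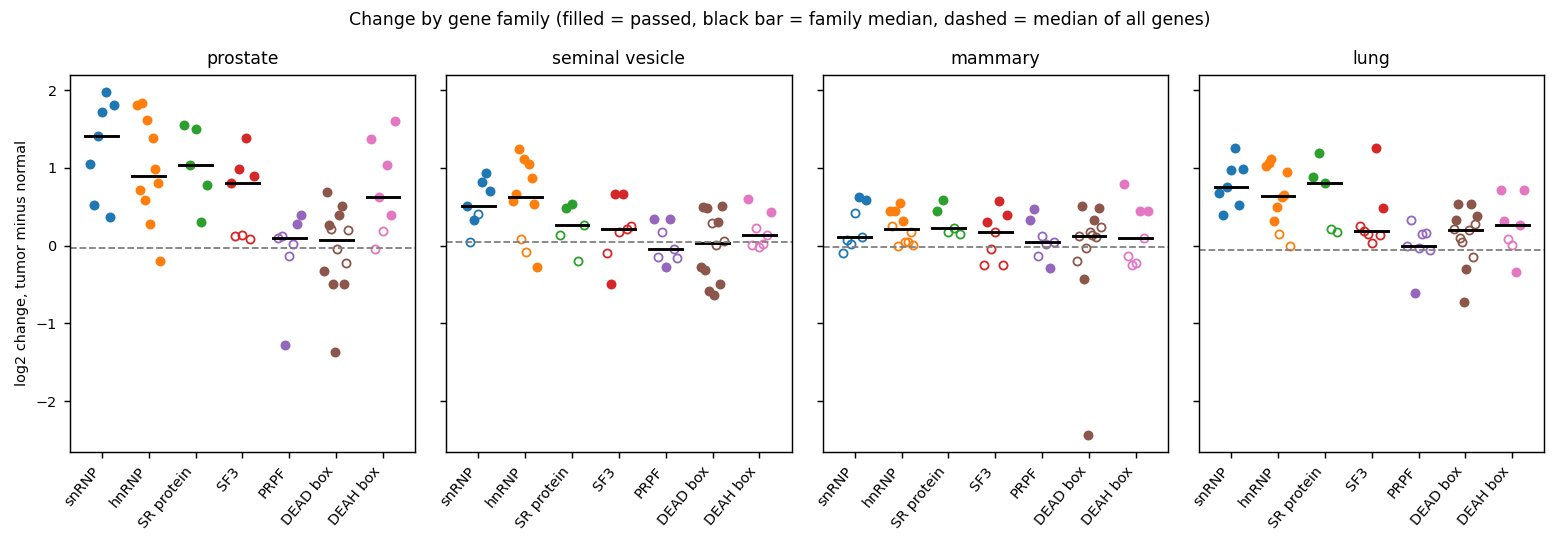
Log2 change, tumor minus normal, of each member (point) by family in the 4 sites on the reference arrays. Filled points passed, the black bar is the family median and the dashed line the median of all genes: in prostate the medians of the snRNP (1.41), SR protein (1.04) and hnRNP (0.90) families stand above those of the DEAD-box (0.08) and PRPF (0.10) families.

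The SF3 subunits belong to the U2 particle that recognises the branch point, and the PRPF proteins act in the tri-snRNP and in activation of the spliceosome. In prostate 4 of 7 SF3 genes rose, in mammary gland 3, and in seminal vesicle and lung 2 each, with 1 lower in seminal vesicle. Sf3b3 read -1.12, -1.03, -1.13 and -1.09 in normal lung and 0.29, -0.16, 0.39 and 0.12 in tumors, a change of 1.25 ± 0.14 (adjusted p = 3.05e-08), the highest of the members there together with Snrpd1. Sf3a3 read 1.06, 0.83, 0.84 and 0.86 in normal seminal vesicle and 0.28 to 0.57 (median 0.39) in tumors, a change of -0.49 ± 0.10 (adjusted p = 2.16e-04). This change was -0.25 under quantile normalization and did not pass. Sf3b1, the SF3b scaffold subunit, rose in prostate (0.98 ± 0.12, but 0.59 and not passing with the muscle covariate) and seminal vesicle (0.66 ± 0.11), and its changes were -0.04 ± 0.13 in mammary gland and 0.15 ± 0.13 in lung, neither of which passed. The PRPF family had medians near 0, 0.10 in prostate, -0.04 in seminal vesicle, 0.04 in mammary gland and 0.00 in lung. Prpf8, the core protein around the catalytic centre, changed by 0.39 ± 0.12 in prostate (adjusted p = 0.0049), where its groups overlapped, and by 0.06 with the muscle covariate, where it did not pass. Prpf6 read -0.27, 0.16, 0.03 and -0.15 in normal mammary gland and -0.39, -0.34, -0.37 and -0.31 in tumors. That small fall of -0.29 ± 0.09 (adjusted p = 0.00755) was lost without normal mammary replicate 2 (-0.22).

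At the 4 sites the DEAH-box helicases rose or did not pass, except Dhx36 in lung. Their counts of rises were 5 of 7 in prostate, 2 in seminal vesicle, 3 in mammary gland and 4 in lung. Dhx15, which releases the excised intron from the spliceosome, had the highest change of the members in mammary tumors. It read 0.05, -0.38, -0.16 and -0.50 in normal mammary gland and 0.45, 0.25, 0.62 and 0.86 in tumors, without overlap, a change of 0.79 ± 0.12 (adjusted p = 2.17e-06). It also rose in prostate (1.37 ± 0.11), lung (0.71 ± 0.12) and seminal vesicle (0.60 ± 0.11). On direct arrays the C3(1) Tag change of Dhx15 was 0.28 ± 0.17 and did not pass (adjusted p = 0.196). It passed as higher in 1 of 8 models, p53fp/fp;WAP-cre (0.76 ± 0.19). Dhx9, known as RNA helicase A, rose 3.03-fold in prostate and by 0.72 ± 0.13 in lung, 0.44 ± 0.13 in mammary gland and 0.43 ± 0.12 in seminal vesicle on the log2 scale. Dhx36, which unwinds G-quadruplexes, read 0.36, 0.11, 0.42 and 0.37 in normal lung and -0.16, 0.08, 0.04 and -0.08 in tumors. It fell in lung (-0.34 ± 0.10, adjusted p = 0.0102) and rose in prostate (1.04 ± 0.10, adjusted p = 1.01e-10) and, with overlapping groups, in mammary gland (0.44 ± 0.10, adjusted p = 0.00101). The lung call was lost within identifier range 1 alone (-0.35).

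The DEAD-box helicases moved both ways: 4 rose and 4 fell in prostate, 4 and 5 in seminal vesicle, 3 and 2 in mammary gland, and 4 and 2 in lung. Ddx39b, also called UAP56, is needed for spliceosome assembly and mRNA export and lies at chr17:35241746-35253707 (GRCm38.p6). In normal mammary gland it read 2.08, 2.37, 2.80 and 2.77, and in mammary tumors -0.09, -0.08, 0.53 and -0.05. The groups were far apart, and the change of -2.43 ± 0.15 (5.37-fold, adjusted p = 3.35e-14) had the greatest size of any member at any site. In normal prostate it read 1.30, 1.08, 1.01 and 1.40 against 0.03, -0.32, -0.38, -0.22 and 0.03 in tumors, a change of -1.37 ± 0.14 (adjusted p = 4.62e-10). In normal lung it read 0.44, 0.28, 0.24 and 0.55 against -0.64, -0.22, -0.30 and -0.24, a change of -0.73 ± 0.15 (adjusted p = 2.03e-04). In seminal vesicle the change was 0.29 ± 0.14 and did not pass (adjusted p = 0.0862). Lymphocyte markers moved beside it in mammary gland and lung. The mean level of 11 T and B cell genes was 0.66 ± 0.27 in normal mammary gland and -0.28 ± 0.12 in tumors, and 0.06 ± 0.07 in normal lung and -0.46 ± 0.03 in tumors. In prostate, where Ddx39b fell more than in lung, that level moved less, from -0.30 ± 0.08 to -0.53 ± 0.10. Normal seminal vesicle had the level of normal prostate, -0.30 ± 0.06, and its tumors -0.41 ± 0.05. Adipocyte markers were lower in mammary tumors too, with 3.59 ± 0.22 in normal mammary gland and 1.18 ± 0.72 in tumors. In prostate the Ddx39b change was -0.46 with the muscle covariate and did not pass. The part of these cell types in the result was not tested.

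Ddx3x, an X-linked helicase of translation initiation, read 1.41, 1.34, 1.36 and 1.42 in normal seminal vesicle and 0.57 to 0.94 (median 0.77) in tumors. No tumor array came within the narrow normal range, and the change was -0.63 ± 0.08 (1.54-fold, adjusted p = 7.09e-07). In lung it was lower at -0.30 ± 0.09 (adjusted p = 0.00951; -0.22 and not passing under quantile normalization), while prostate (-0.05 ± 0.09) and mammary gland (0.18 ± 0.09) did not pass. Ddx31 read 0.95, 0.86, 1.01 and 1.19 in normal seminal vesicle and 0.22 to 0.67 (median 0.38) in tumors, a change of -0.59 ± 0.11 (adjusted p = 4.76e-05). Ddx54 read 0.58, 0.29, 0.54 and 0.51 in normal prostate and 0.16, -0.14, 0.12, 0.00 and -0.22 in tumors, a change of -0.49 ± 0.14 (adjusted p = 0.00271) that was -0.34 and did not pass with the muscle covariate. Ddx24 read 0.04, 0.25, 0.25 and 0.13 in normal mammary gland and -0.19, -0.36, -0.21 and -0.30 in tumors, a change of -0.43 ± 0.14 (adjusted p = 0.0137). In seminal vesicle Ddx24 went the other way, by 0.49 ± 0.13 (adjusted p = 0.00242). The mammary fall was not seen on direct arrays, where Ddx24 passed as higher in 4 of 8 models and as lower in 0. In C3(1) Tag its change was 0.39 ± 0.20 and did not pass (adjusted p = 0.117). Its MMTV-myc call was lost without any 1 array (0.57 to 0.69), and its MMTV-PyMT call without replicate 1, 3 or 5 (0.53 to 0.69).

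**Figure D3:**
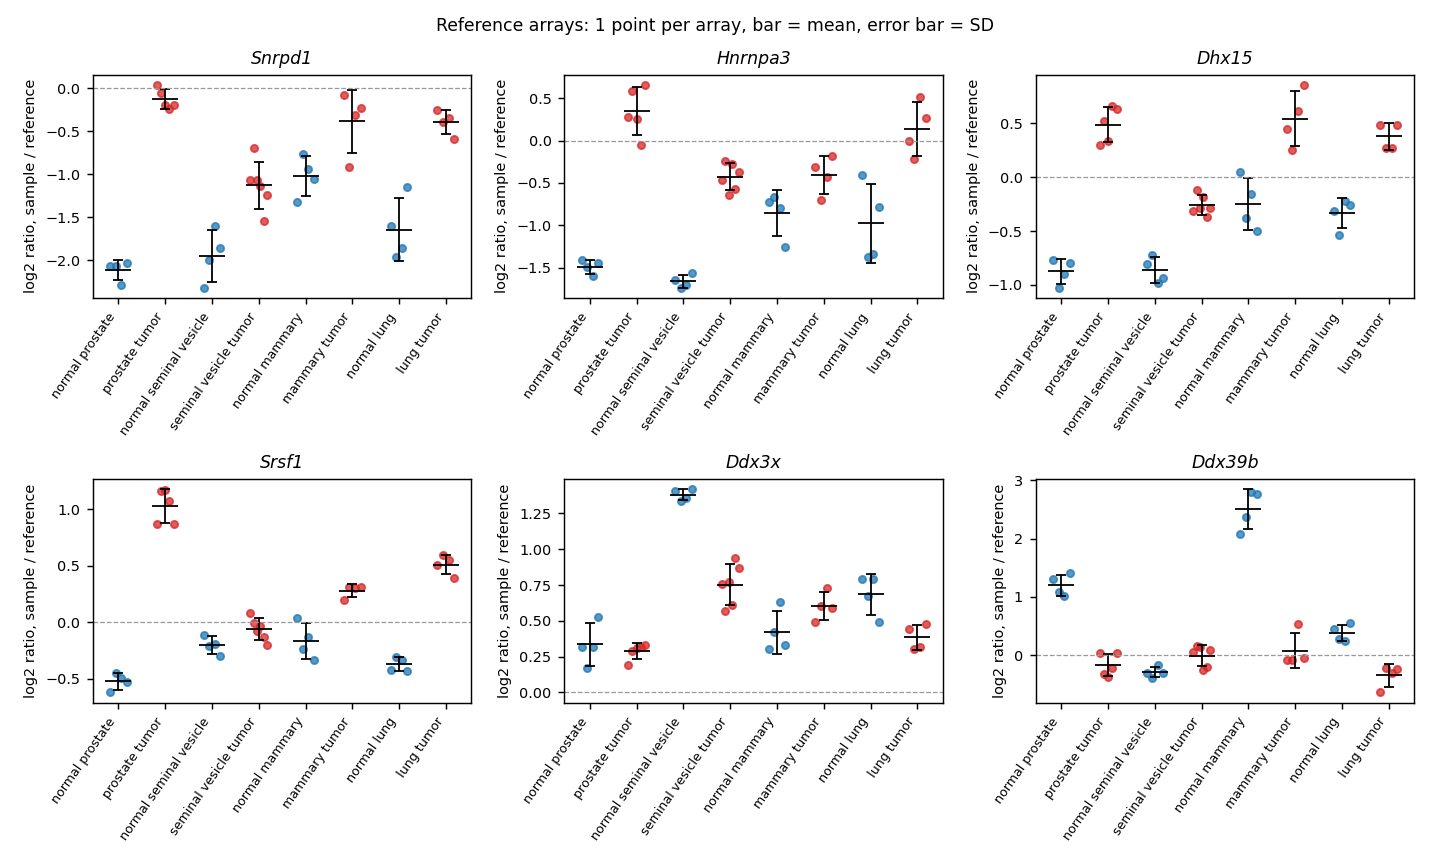
Log2 ratio of sample over common reference for 6 genes on every reference array (point) of the 8 groups, blue for normal and red for tumor, with the mean (bar) and SD (error bar). Snrpd1 and Hnrnpa3 stand lowest in normal prostate and normal seminal vesicle and higher in the tumors, Ddx3x stands highest in normal seminal vesicle, and Ddx39b stands highest in normal mammary gland (2.08 to 2.80).

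The size of the tumor change differed among the 4 sites for 46 of 55 members by limma's F test, where 74.1% of all genes did. In prostate against seminal vesicle, both from TRAMP mice, the change was higher in prostate for 29 members and lower for 4, with a median difference of 0.36 against 0.03 over all genes. Of all genes 22.6% were higher and 24.1% lower. Srsf1 had the largest positive difference, 1.41 ± 0.11 (adjusted p = 5.25e-12), followed by Snrpc (1.32 ± 0.27), Hnrnpa1 (1.24 ± 0.17), Dhx9 (1.17 ± 0.17) and Snrpd1 (1.16 ± 0.23). The 4 lower were Ddx39b (-1.65 ± 0.20), Prpf38b, Ddx58 (-0.74 ± 0.20) and Snrpd3 (-0.56 ± 0.20). These counts became 9 and 2 with the muscle covariate, and 9 and 4 with the identifier range as a factor. Shares of all genes in these fits are not given here. In mammary gland against lung, both FVB, the change was lower in mammary gland for 17 members and higher for 2, with a median difference of -0.25 against 0.01, where 12% of all genes were lower and 12.2% higher. Without mammary tumor replicate 2, 11 were lower and 2 higher. The 17 held 6 of 10 hnRNP genes, 3 of 5 SR proteins and Ddx39b, with the largest difference of -1.70 ± 0.21 (adjusted p = 4.57e-07). The 2 higher were Dhx36 (0.78 ± 0.15) and Ddx3x (0.48 ± 0.13).

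Among the normal tissues alone, 48 of 55 members differed, where 79.4% of all genes did. Prostate and seminal vesicle came from C57BL/6 mice and mammary gland and lung from FVB mice, so strain cannot be told apart from tissue between these pairs. The normal seminal vesicle arrays also share an identifier range that no other normal array has. Ddx39b had the smallest adjusted p (7.39e-16), with means of 2.50 ± 0.35 (SD, n = 4) in mammary gland, 1.20 ± 0.18 in prostate, 0.38 ± 0.14 in lung and -0.29 ± 0.09 in seminal vesicle. No neighbours in this order overlapped. Ddx3x stood highest in seminal vesicle (1.38 ± 0.04), then lung (0.68 ± 0.14), mammary gland (0.42 ± 0.15) and prostate (0.34 ± 0.15), with adjusted p = 2.07e-11, and the arrays of the lower 3 tissues overlapped their neighbours. Hnrnph1 went from 0.06 ± 0.35 in mammary gland and -0.20 ± 0.16 in lung, which overlapped, to -0.63 ± 0.06 in prostate and -1.13 ± 0.08 in seminal vesicle (adjusted p = 5.51e-10).

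In the 8 mammary models on direct arrays, the shares of members that passed in either direction were close to those of all genes. By direction some were less close. Of the members, 26.5% were higher and 6.12% lower in p53fp/fp;WAP-cre, 32.7% and 20.4% in Brca1 Co/Co;MMTV-cre;p53, and 12.2% and 6.12% in p53-/-;transplant. In MMTV-her2/neu 12.2% were higher and 8.16% lower, both under the shares of all genes. C3(1) Tag had 10 of 49 higher and 10 lower (all genes 22.4% and 19.5%), Brca1 Co/Co;MMTV-cre;p53 16 and 10 (26.2% and 21.2%), and p53fp/fp;WAP-cre 13 and 3 (18% and 11.1%). MMTV-PyMT had 10 and 4 (18.3% and 12%), MMTV-myc 7 and 4 (12.2% and 10.9%), MMTV-her2/neu 6 and 4 (15% and 10.9%), p53-/-;transplant 6 and 3 (9.66% and 11.1%) and MMTV-ras 4 and 5 (9.97% and 8.89%). The median member change ran from 0.04 in MMTV-PyMT to 0.19 in p53-/-;transplant, and from 0.00 in MMTV-PyMT to 0.42 in C3(1) Tag in deposited values. Its sign turned in C3(1) Tag without replicate 1 (-0.03), 4 (-0.01) or 5 (-0.01), in MMTV-myc without replicate 4 (-0.08) and in MMTV-ras without replicate 1 (-0.02), and in Brca1 Co/Co;MMTV-cre;p53 it ran from 0.10 to 0.33 when 1 array was left out. The split of directions depended on the processing. Without centring C3(1) Tag had 22 higher and 1 lower, MMTV-myc 14 and 0, MMTV-ras 13 and 0, Brca1 Co/Co;MMTV-cre;p53 19 and 7, and MMTV-her2/neu 3 and 4. Deposited array medians over all features ran from 0.04 to 0.66 in C3(1) Tag, -0.02 to 0.52 in MMTV-myc and -0.15 to 0.63 in MMTV-ras. Shares of all genes without centring, under quantile normalization or in fits to a model alone are not given here. Quantile normalization gave 23 and 3 in p53-/-;transplant, 17 and 5 in MMTV-her2/neu, 15 and 5 in MMTV-ras, 16 and 7 in C3(1) Tag and 14 and 2 in MMTV-myc. A fit to the arrays of the model alone gave 3 and 7 in Brca1 Co/Co;MMTV-cre;p53, 20 and 8 in MMTV-her2/neu, 13 and 4 in p53-/-;transplant, 8 and 3 in MMTV-ras and 1 and 0 in MMTV-myc. Some totals also turned on 1 array: of 20 in C3(1) Tag 11 were left without replicate 2, of 14 in MMTV-PyMT 6 without replicate 1 and 7 without replicate 5, and of 10 in MMTV-her2/neu 6 without replicate 3. Of 11 in MMTV-myc 5, 4, 7 and 7 were left without replicates 1, 2, 3 and 4.

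Marker genes moved in every model. Of 16 skeletal muscle genes 10 to 16 fell, with median changes from -4.00 in Brca1 Co/Co;MMTV-cre;p53 to -1.80 in MMTV-ras, and of 11 adipocyte genes 9 to 11 fell (-3.40 to -1.30). Of 7 epithelial markers 1 to 6 rose, with medians from 0.89 in p53-/-;transplant to 1.43 in MMTV-PyMT. Of 16 proliferation genes 15 rose in C3(1) Tag and in Brca1 Co/Co;MMTV-cre;p53, 14 in p53fp/fp;WAP-cre, 7 in p53-/-;transplant and 2 to 5 in the other models. Their part in the members' values was not tested.

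Some members moved alike in most models. Hnrnpa3, Dhx8, Srsf1, Hnrnpul2, Snrpd1 and Ddx11 were picked for passing in the most models, so their likeness across models is built into the choice. Most members passed in fewer models, and the share of all genes that passed in all 8 was not counted. Hnrnpa3 passed as higher in all 8, with no array of any model below 0. It read 1.68, 1.21, 0.35, 1.15 and 2.14 in C3(1) Tag and 1.55, 2.33, 1.70 and 1.71 in p53fp/fp;WAP-cre. Its change was highest in p53fp/fp;WAP-cre at 1.82 ± 0.21 (3.54-fold, adjusted p = 2.58e-08) and lowest in Brca1 Co/Co;MMTV-cre;p53 at 0.61 ± 0.18 (adjusted p = 0.00631), where the call was lost without replicate 1 (0.40) and in a fit to that model alone. The size differed among the models (adjusted p = 0.0133). Dhx8, which releases spliced mRNA from the spliceosome, also passed as higher in all 8, from 0.38 ± 0.14 in p53-/-;transplant to 0.87 ± 0.14 in C3(1) Tag. It read 0.73, 0.74, 1.26, 0.54 and 1.08 in C3(1) Tag, and 1 array of p53fp/fp;WAP-cre was below 0 (-0.43, against 0.95, 0.81 and 0.47). The calls of Dhx8 in p53-/-;transplant, p53fp/fp;WAP-cre and MMTV-her2/neu did not pass in deposited values (0.34, 0.34 and 0.36). In these 3 models and MMTV-myc they were lost when 1 of several arrays was left out, with changes from 0.28 to 0.45: all but replicate 4 of p53-/-;transplant, all but replicate 1 of p53fp/fp;WAP-cre, all but replicate 5 of MMTV-her2/neu and all but replicate 4 of MMTV-myc. In fits to the arrays of the model alone, the calls of Dhx8 in p53fp/fp;WAP-cre and MMTV-myc, of Hnrnpul2 in p53fp/fp;WAP-cre and Brca1 Co/Co;MMTV-cre;p53, of Ddx39b in Brca1 Co/Co;MMTV-cre;p53, and of Srsf1, Srsf6 and Ddx11 in MMTV-myc were lost too.

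Dhx29, a DEAH-box helicase of translation initiation on structured mRNAs, was named after its values were seen. It passed as lower in 4 models, p53-/-;transplant (-0.61 ± 0.13, adjusted p = 5.08e-04), MMTV-her2/neu (-0.46 ± 0.13), MMTV-ras (-0.43 ± 0.13) and MMTV-myc (-0.39 ± 0.14), and every array of these was below 0. In p53-/-;transplant it read -0.73, -0.68, -0.65, -0.64 and -0.33. On reference arrays it passed only in lung, where it was higher (0.32 ± 0.10, adjusted p = 0.0134).

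Snrpd1 rose in 5 of 8 models, led by Brca1 Co/Co;MMTV-cre;p53 (1.15 ± 0.21, adjusted p = 3.67e-05) and p53fp/fp;WAP-cre (1.15 ± 0.24). In MMTV-her2/neu it read 0.01, 0.71, 1.19, 0.38 and 0.58, and that call was lost without replicate 2 (0.54), 3 (0.42), 4 (0.62) or 5 (0.57). Ddx11, a helicase of sister chromatid cohesion, rose in 5 models, with 1.30, 0.70, 2.34, 0.56 and 1.71 in C3(1) Tag (1.32 ± 0.20, adjusted p = 5.01e-06) and 1.42, 1.36, 0.87 and 0.84 in the 4 MMTV-PyMT arrays with a value (1.12 ± 0.22). All arrays of both models were above 0. In p53fp/fp;WAP-cre it read 0.09, 0.14, 0.15 and -0.11 and did not pass, and its size differed among models (adjusted p = 0.011). Its MMTV-myc call was lost without any 1 array (0.45 to 0.71) and its MMTV-ras call without replicate 4 (0.64). Hnrnpul2 was lower in 6 models by -0.48 to -0.31, and in deposited values the calls in C3(1) Tag (-0.15), Brca1 Co/Co;MMTV-cre;p53 (-0.12) and MMTV-ras (-0.19) were lost. In Brca1 Co/Co;MMTV-cre;p53 it read 0.09, -0.36, 0.05, -0.66 and -0.69, so 2 of 5 arrays lay above 0. Leaving out 1 array ended its call in p53fp/fp;WAP-cre (replicate 2, -0.34), MMTV-her2/neu (1, -0.36), MMTV-ras (1, 4 or 5, -0.37 to -0.31) and Brca1 Co/Co;MMTV-cre;p53 (2, 4 or 5, -0.30 to -0.22).

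Hnrnpa2b1, Srsf6 and Prpf39 had their lowest model means in the Brca1 Co/Co;MMTV-cre;p53 tumors. Hnrnpa2b1, a regulator of exon choice and RNA transport, read -0.47, -0.97, -1.60, -1.04 and -0.82 there, a change of -0.98 ± 0.17 (1.97-fold, adjusted p = 1.10e-05), and passed in no other model. It had the smallest p of the members for a difference among the models (adjusted p = 5.99e-04). In C3(1) Tag Hnrnpa2b1 read 0.52, 0.59, -0.58, 0.49 and 0.72. Srsf6, an SR protein, read -1.12, -1.46, -0.75 and -1.87 on the 4 Brca1 Co/Co;MMTV-cre;p53 arrays with a value (-1.30 ± 0.21, adjusted p = 5.78e-06). In MMTV-myc it read -0.56, -0.15, -0.27 and -1.96, and that call was lost without replicate 4 (-0.33). Prpf39, a U1 snRNP factor, read -1.21, -1.59, -1.55, -0.51 and -0.33 in Brca1 Co/Co;MMTV-cre;p53 (-1.04 ± 0.16, adjusted p = 1.89e-06). In C3(1) Tag its call was lost without replicate 2 (-0.37). The difference among models had adjusted p = 0.0013 for Srsf6 and 0.00299 for Prpf39. Ddx3x read -1.01, -0.36, -0.99 and -1.04 on the 4 arrays of the same model with a value and passed in no other model. It and Hnrnph1 did not pass there under quantile normalization (-0.49 and -0.44). The arrays of Brca1 Co/Co;MMTV-cre;p53, of p53fp/fp;WAP-cre and of p53-/-;transplant each fill an identifier range that no other model has. For these models, model cannot be told apart from range, nor from strain in a comparison with the FVB models. In all, 14 of 49 members differed among the 8 models, where 42.1% of all genes did, and 1 of 49 differed between C3(1) Tag and the mean of the other FVB models, where 11.7% did. That gene was Snrpc, higher in C3(1) Tag by 0.67 ± 0.19 (adjusted p = 0.0172), and 9 members had an unadjusted p under 0.05. The count was 0 without C3(1) Tag replicate 1, 2 without C3(1) Tag replicate 2 or MMTV-myc replicate 1, 3 without C3(1) Tag replicate 3, and 6 in deposited values.

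**Figure D4:**
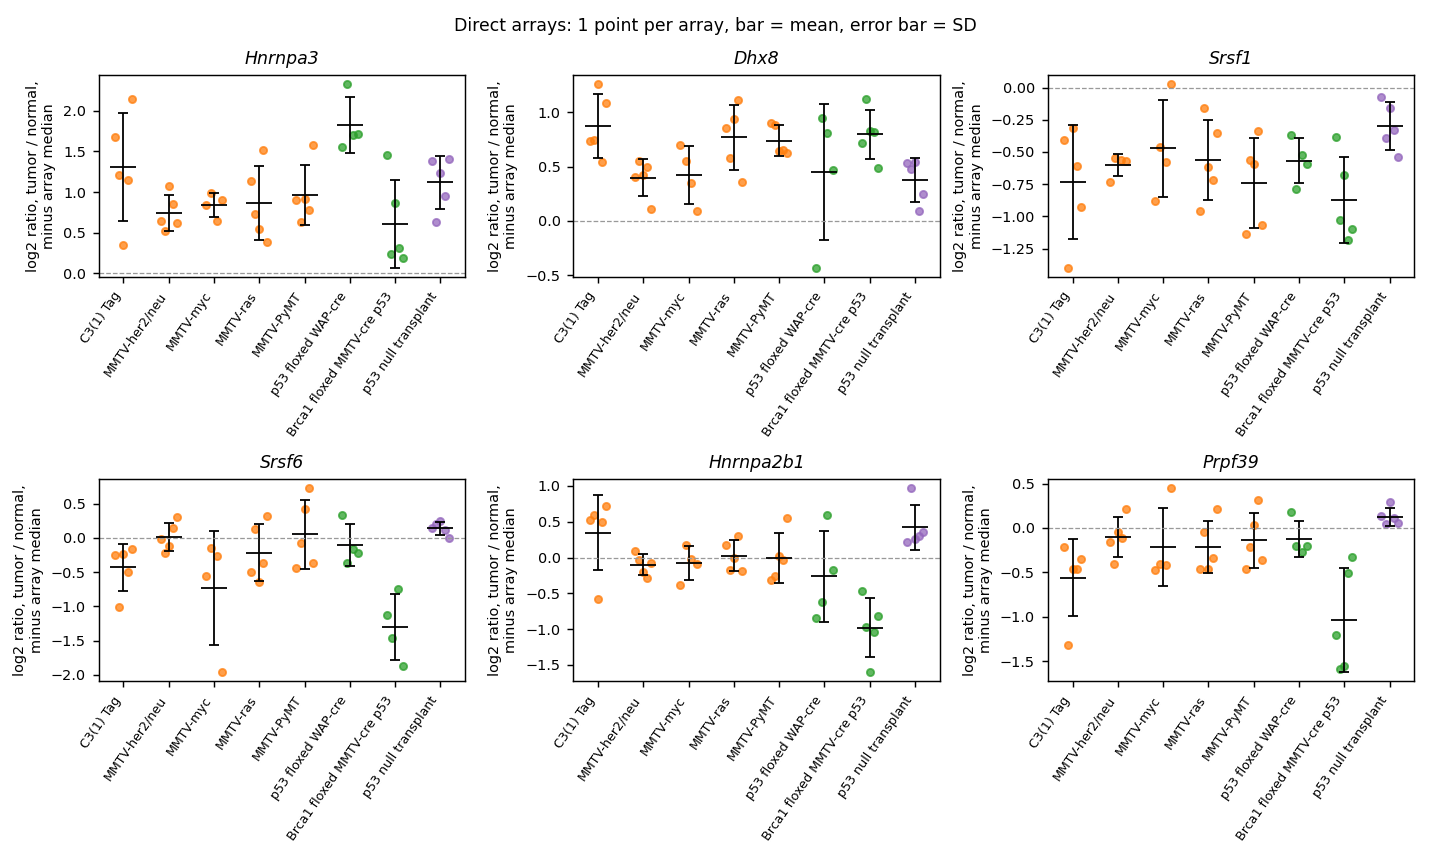
Log2 ratio of tumor over normal mammary gland, minus the array median, for 6 genes on every direct array with a value (point) of the 8 models, with the mean (bar) and SD (error bar). The dashed line is 0: Hnrnpa3 lies above it on every array, and Srsf6, Hnrnpa2b1 and Prpf39 lie lowest on average in Brca1 Co/Co;MMTV-cre;p53.

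The C3(1)/SV40 T/t-antigen mammary tumors were measured by both designs, and some members went opposite ways. Across 49 members, which are not independent, the mammary change on reference arrays and the C3(1) Tag change on direct arrays had a Pearson r of 0.252, and across 5752 genes 0.499. Srsf1 was one of them. On direct arrays it was lower in all 8 models and passed in 7, reading -0.41, -1.40, -0.31, -0.61 and -0.93 in C3(1) Tag (-0.73 ± 0.14, adjusted p = 1.11e-04) and -0.38, -1.03, -0.68, -1.18 and -1.10 in Brca1 Co/Co;MMTV-cre;p53 (-0.87 ± 0.14). In deposited values the C3(1) Tag change was also below 0 and passed, while those of MMTV-myc (-0.25) and MMTV-ras (-0.38) did not. The MMTV-myc call was also lost without replicate 1 (-0.34), 2 (-0.48) or 3 (-0.43). On reference arrays Srsf1 was higher in mammary tumors by 0.45 ± 0.09 (adjusted p = 7.74e-05), with 0.04, -0.24, -0.13 and -0.33 in normal tissue and 0.20, 0.31, 0.30 and 0.31 in tumors. The opposite sign also held for the single feature measured in both sets, at 0.40 on reference arrays and -0.73 on direct arrays. Sf3a3 passed as higher in mammary tumors on reference arrays and as lower in C3(1) Tag on direct arrays (-0.49 ± 0.14, adjusted p = 0.00575). The first call was lost without normal mammary replicate 1, 2 or 3 or mammary tumor replicate 2 (0.25 to 0.30). The second was lost without C3(1) Tag replicate 2 (-0.37). Ddx24 passed as lower in mammary tumors on reference arrays, and its C3(1) Tag change on direct arrays, 0.39, did not pass. Ddx39b was lower in both designs, but by -2.43 on reference arrays and by -0.37 on the C3(1) Tag direct arrays, which did not pass. It passed as lower in MMTV-her2/neu (-0.66), p53-/-;transplant (-0.72), MMTV-ras (-0.55) and Brca1 Co/Co;MMTV-cre;p53 (-0.46). The last was lost without replicate 1, 4 or 5 (-0.43, -0.31 and -0.33), that of p53-/-;transplant without replicate 4 (-0.54), and that of MMTV-ras without replicate 1, 2, 3 or 4 (-0.61 to -0.46). The reference arrays compared each sample with a common pool and the direct arrays had a fixed dye for tumor and normal, and the part of either in these differences was not tested.

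Of the members, 4 have several features, and these did not always move together. Prpf38b, a tri-snRNP-associated factor, had 2 that went opposite ways, so its averaged value stands for neither. The first read 2.21 ± 0.27 (SD, n = 4) in normal prostate and -0.75 ± 0.25 (n = 5) in tumors, while the second read -0.40 ± 0.20 and -0.01 ± 0.24. In lung the first fell by -1.40 and the second differed by 0.18. On direct arrays the first was -2.62 ± 0.25 (n = 5) and the second 1.00 ± 0.64 in p53-/-;transplant, and -1.86 ± 1.11 (n = 4) and 1.23 ± 0.64 (n = 3) in p53fp/fp;WAP-cre, where the second has no value on 1 array. The averages, -1.28 ± 0.13 in prostate (adjusted p = 5.45e-10) and -0.61 ± 0.14 in lung (adjusted p = 7.56e-04), therefore rest on the first feature. The skeletal muscle level was also high in normal prostate, as given above, and its median change was -2.68 in p53-/-;transplant and -2.95 in p53fp/fp;WAP-cre. Its part in the first feature's values was not tested. With the muscle covariate the prostate average was -0.48 and did not pass.

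Srsf1 had 2 features on reference arrays that agreed in prostate (1.13 and 1.97), mammary gland (0.40 and 0.50) and lung (0.32 and 1.44) and disagreed in seminal vesicle (-0.35 and 0.63), where the averaged change of 0.14 did not pass. Hnrnpa1, an abundant hnRNP that represses many exons, had 3 features that all rose in prostate (1.99, 0.92 and 2.50) and lung (0.99, 0.90 and 1.18). In Brca1 Co/Co;MMTV-cre;p53 they read 0.65, -0.40 and 0.64. Sf3b1 had 2 that were alike in prostate (1.10 and 0.86), seminal vesicle (0.48 and 0.83) and mammary gland (-0.03 and -0.06) but not in lung (0.42 and -0.12). These genes belong to families with close relatives, and cross-hybridisation of a cDNA feature with a relative cannot be told apart from its own signal.

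**Figure D5:**
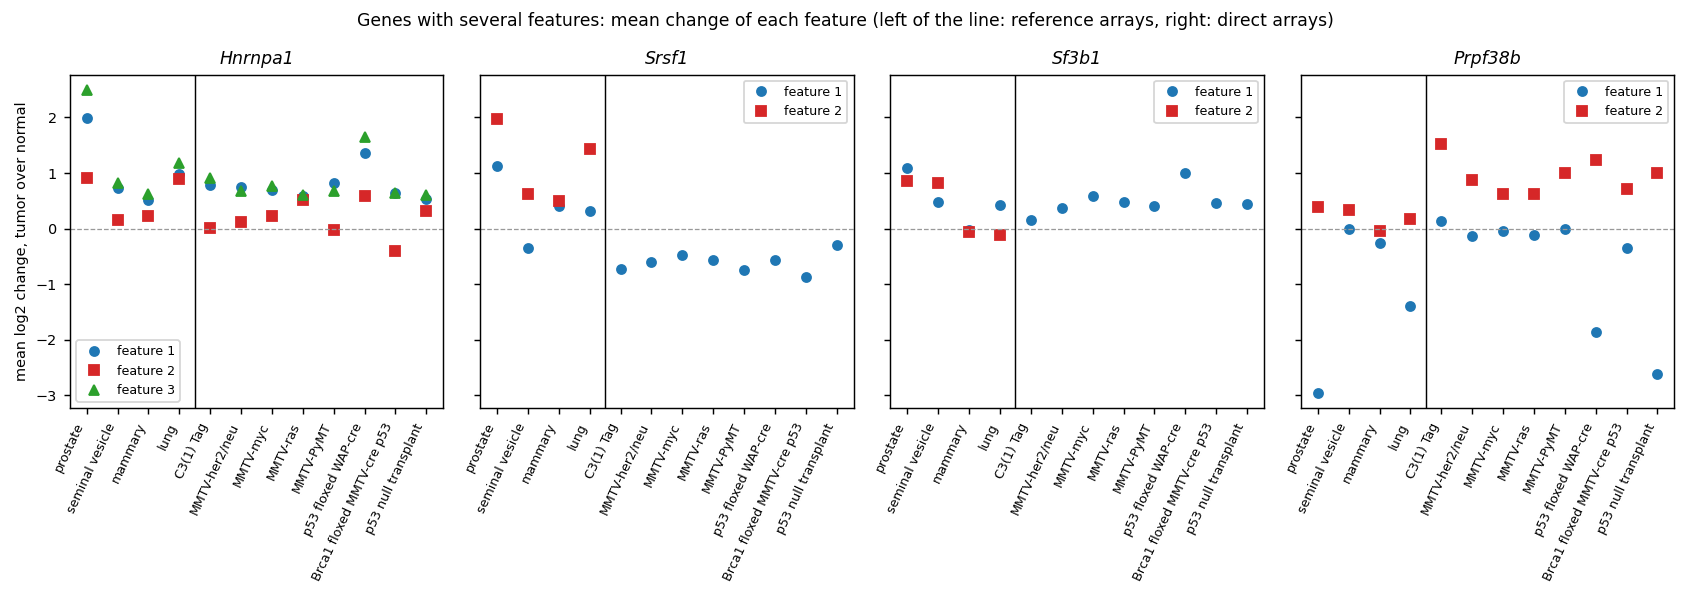
Mean log2 change, tumor over normal, of each feature of the 4 members with several features, for 4 sites on reference arrays (left of the line) and 8 models on direct arrays (right). The features of Prpf38b stand apart, at -2.96 and 0.39 in prostate, and the single Srsf1 feature with direct values lies above 0 in mammary gland (0.40) and below 0 in all 8 models.

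Other spliceosome and RNA-processing genes outside the symbol rule, such as U2af2, which binds the polypyrimidine tract, and the SR-like protein Tra2b, were counted from a list of 64 measured genes. In prostate 35 rose and 8 fell with a median change of 0.39, in lung 29 and 3 (0.26), in seminal vesicle 28 and 7 (0.23) and in mammary gland 15 and 6 (0.04). The shares of all genes are those given above for each site. On direct arrays 57 were measured. In p53fp/fp;WAP-cre 21 passed as higher and 4 as lower (all genes 18% and 11.1%), in Brca1 Co/Co;MMTV-cre;p53 20 and 13 (26.2% and 21.2%), in MMTV-PyMT 15 and 3 (18.3% and 12%), and in p53-/-;transplant 15 and 3 (9.66% and 11.1%). C3(1) Tag had 13 and 11 (22.4% and 19.5%), MMTV-myc 8 and 6 (12.2% and 10.9%), MMTV-her2/neu 7 and 6 (15% and 10.9%) and MMTV-ras 4 and 4 (9.97% and 8.89%).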

How the data were processed

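The 73 cDNA arrays carry 9596 features and were hybridised in 2 colours, with fixed dyes and no swaps. The deposited values were read as log2 ratios. Ratios were read as sample over reference and as tumor over normal, a direction that tissue markers also gave. Image analysis and normalization are not given in the sources used here. The base was checked with the interaction rule of the series text, whose stated number of features was nearest with base 2 (2633 found, against 3764 with base e and 4168 with base 10). Symbols were updated by gene ID (7395 of 7486 features matched, all 60 of the members), and features of a gene were averaged. Another 6 features with a matching symbol among several symbols were left out.

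Group means were fitted with limma 3.58.1 in R 4.3.3, a gene being tested with at least 3 values in each group compared, and the fit was tested on simulated data. Reference arrays were used as deposited, and direct arrays were centred. Genes were named by a fixed rule: per site the 3 largest rises and falls that passed without overlap, the 6 passing in most models, the 3 with the smallest p among models and among normal tissues, and a short list of well-known members. The members and lists were chosen with earlier results of these data known. The number of arrays limits the precision, and no intensities were used. Alternatives covered scaling, features, identifier ranges, a muscle covariate, the samples fitted and leaving out each array. Normal and tumor arrays of a site with the same replicate number did not all deviate together at any site (r from -0.24 to 0.22).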

Additional observations from a re-analysis of the deposited data

Results flagged for a closer look

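Single arrays stood far from the rest of their group, by Dixon's criterion, in 31 of 456 group and gene combinations, of which chance gives about 1 in 20. Snrpd1 read -2.29 in normal prostate replicate 3 (others -2.06 to -2.03) and 1.06 in MMTV-ras replicate 4 (others 0.31 to 0.41). Ddx39b read 0.53 in mammary tumor replicate 3 (others -0.09 to -0.05) and -1.17 in MMTV-PyMT replicate 5 (others -0.33 to -0.18). Ddx54 read 0.39 in normal seminal vesicle replicate 2 (others 1.04 to 1.13). Ddx3x read 0.19 in prostate tumor replicate 1 (others 0.29 to 0.33) and -0.36 in Brca1 Co/Co;MMTV-cre;p53 replicate 3 (others -1.04 to -0.99). Ddx31 read -0.17 in prostate tumor replicate 5 (others -0.08 to -0.06) and 0.78 in p53-/-;transplant replicate 3 (others -0.20 to 0.04). Sf3a3 read 0.30 in normal prostate replicate 3 (others 0.21 to 0.21), 1.06 in normal seminal vesicle replicate 1 (others 0.83 to 0.86), 0.26 in mammary tumor replicate 2 (others 0.13 to 0.15) and -0.50 in p53fp/fp;WAP-cre replicate 2 (others -0.05 to 0.04). Ddx24 read 1.08 in prostate tumor replicate 5 (others 0.16 to 0.33) and -0.90 in normal seminal vesicle replicate 1 (others -0.36 to -0.31). Sf3b3 read -0.96 in normal mammary replicate 4 (others -0.57 to -0.55). Srsf1 read 0.20 in mammary tumor replicate 1 (others 0.30 to 0.31) and -0.73 in MMTV-her2/neu replicate 1 (others -0.57 to -0.55). Hnrnpul2 read -0.14 in prostate tumor replicate 2 (others -0.09 to -0.08). Srsf2 read -0.29 in normal mammary replicate 4 (others 0.06 to 0.10), 1.16 in MMTV-her2/neu replicate 3 (others 0.41 to 0.59) and 1.47 in MMTV-myc replicate 4 (others 0.53 to 0.62). The median over the members read -0.12 in C3(1) Tag replicate 3 (others 0.07 to 0.13) and -0.05 in MMTV-ras replicate 3 (others 0.12 to 0.17). Hnrnpd read 0.76 in MMTV-her2/neu replicate 4 (others 0.11 to 0.20). Hnrnph1 read 0.07 in Brca1 Co/Co;MMTV-cre;p53 replicate 1 (others -1.13 to -0.88). Hnrnpa2b1 read 0.97 in p53-/-;transplant replicate 2 (others 0.22 to 0.36) and -0.58 in C3(1) Tag replicate 3 (others 0.49 to 0.72). Prpf39 read 0.18 in p53fp/fp;WAP-cre replicate 1 (others -0.27 to -0.20), -1.32 in C3(1) Tag replicate 2 (others -0.46 to -0.21) and 0.45 in MMTV-myc replicate 4 (others -0.47 to -0.41).

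The tumor change differed among the 4 sites, by limma's F test over all genes, for 27 of 29 named genes, where 74.1% of all genes did. Many of the named genes were picked as the largest rises or falls at a site, so a difference among sites is partly built into the choice. The adjusted p was 3.72e-05 for Snrpd1, 1.05e-04 for Hnrnpa3, 1.40e-06 for Snrpe, 7.64e-12 for Ddx39b, 3.05e-07 for Prpf38b, 0.0184 for Ddx54 and 6.23e-05 for Hnrnpd. It was 8.25e-08 for Hnrnph1, 7.36e-06 for Ddx3x, 7.89e-04 for Ddx31, 6.48e-05 for Sf3a3, 3.64e-04 for Dhx15, 0.00461 for Srsf10 and 7.76e-04 for Ddx24. For others it was 5.61e-04 for Prpf6, 6.70e-04 for Sf3b3, 6.24e-09 for Dhx36, 2.14e-11 for Srsf1, 0.0473 for Hnrnpul2, 0.0172 for Ddx11 and 0.00204 for Hnrnpa2b1. The rest had 0.00326 for Srsf6, 1.51e-06 for Dhx9, 4.36e-07 for Srsf2, 2.46e-07 for Hnrnpa1, 1.43e-05 for Sf3b1 and 0.0204 for Prpf8. No cause was tested.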

How the results depend on the processing

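Of 123 counts of members passing under another setting, leaving out arrays aside, 97 stayed within 1.5 times the main count. With the skeletal muscle level as a covariate, 21 members passed in prostate and 11 in prostate against seminal vesicle. With the identifier range as a fixed factor, 13 passed in seminal vesicle and 13 in prostate against seminal vesicle, and in mammary gland 13 passed within range 1 alone. Quantile normalization gave 14 in seminal vesicle, 26 in p53-/-;transplant, 22 in MMTV-her2/neu and 20 in MMTV-ras. Genes with a value on every array left 5 in p53-/-;transplant, 6 in p53fp/fp;WAP-cre, 11 in Brca1 Co/Co;MMTV-cre;p53, 9 in C3(1) Tag, 5 in MMTV-her2/neu, 4 in MMTV-myc, 4 in MMTV-ras, 6 in MMTV-PyMT, 8 among the models and 0 for C3(1) Tag against the other FVB models, where fewer genes were tested. A fit to the arrays of the model alone gave 17 in p53-/-;transplant, 10 in Brca1 Co/Co;MMTV-cre;p53, 28 in MMTV-her2/neu and 1 in MMTV-myc. Deposited values gave 9 in MMTV-PyMT and 6 for C3(1) Tag against the other FVB models. That contrast gave 2 within range 7, without MMTV-myc, and the test among all 8 models could not be fitted within 1 range. Shares of all genes under these settings are not given here, and the cause of these shifts was not tested. Leaving out 1 array gave 40 to 43 in prostate, 29 to 33 in seminal vesicle, 19 to 22 in mammary gland, 29 to 32 in lung, 42 to 47 among sites, 11 to 24 in C3(1) Tag, 6 to 8 in MMTV-her2/neu, 4 to 7 in MMTV-myc, 6 to 15 in MMTV-PyMT and 0 to 3 for C3(1) Tag against the other FVB models. Of 2194 gene values under other settings, 1980 kept their direction and side of the threshold, 213 lost the call and 1 changed sign, Ddx54 in C3(1) Tag, at 0.01 in deposited values. With the replicate number as a block, 41 passed in prostate, 31 in seminal vesicle, 21 in mammary gland, 32 in lung and 47 among sites, and the calls of Hnrnpa3 in mammary gland and Prpf39 in seminal vesicle were lost. The samples share only a number.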
